A study of Homo sapiens with 10 samples.

Results

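The ABCA subfamily of ATP-binding cassette transporters was examined in lines of A549, the long-established human cell line from a lung adenocarcinoma, as 10 genes chosen by name among the 33551 rows of a count table: ABCA1, ABCA2, ABCA3, ABCA4, ABCA5, ABCA7, ABCA8, ABCA10, ABCA12 and ABCA13. All 10 had a row, and 8 passed the filter on low counts. The members ABCA8 and ABCA13 did not pass it and are given by their counts alone. The members were taken to see how much of the family these cells express beside ABCA3, and whether the paralogs differed between lines in which ABCA3 is altered and wild-type cells.

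ABCA proteins are large membrane transporters that use ATP to move lipids across or out of a membrane. ABCA3 sits in the limiting membrane of lamellar bodies, the organelles in which alveolar type 2 cells pack surfactant phospholipid, and its loss causes surfactant deficiency. ABCA1 loads cholesterol and phospholipid onto apolipoprotein A-I and is a classic target of the liver X receptors (LXR), the nuclear receptors that sense oxysterols. ABCA12 fills the lamellar granules of the epidermis with glucosylceramide and is the gene mutated in harlequin ichthyosis.

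The 10 libraries came from 5 A549 lines, which the labels give as ABCA3 wild type (WT), ABCA3 knockout (KO), and the ABCA3 variants L101P, E292V and E690K. An untreated culture of each and one exposed overnight to the VSVG lentiviral vector LV-ABCA3:GFP (multiplicity of infection 20) gave 1 library apiece. The labels do not say how the lines were made or whether each is a clone, so 1 line stands for each genotype, and a difference between lines describes those lines. The ABCA3 count does not separate transcripts of the cells' own gene from those of the vector. The KO pair went against its labels: ABCA3 and the EGFP row were high in the library labelled KO untreated and low in the library labelled KO transduced, as given below, and these names are used for them throughout.

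The residues that name the variant lines were located in the reference, to show what is altered in ABCA3. In GENCODE release 29 on GRCh38, the ABCA3 gene (ENSG00000167972.13, minus strand) spans chr16:2275881-2340746, and the transcript used has 33 exons and 1704 codons. The reference residue at each position was the one in the line's name, and a single-base change of the codon gives the named residue in each case. The sequences are the coding strand, 5′ to 3′, with the altered codon in capitals and 12 bases on either side, as in the reference and not as read from the lines.
L101P, exon 5, chr16:2326026-2326028: gtgcgcagggcaCTTgtgatcaacatg
E292V, exon 9, chr16:2317762-2317764: aggaggctgaagGAGtacatgcgcatg
E690K, exon 17, chr16:2297522-2297524: ctgatactggacGAGcccacctcgggc
The single-base codons for the named residues are CCT for L101P, GTG for E292V and AAG for E690K. All 3 codons are in coding exons. The annotated genes ABCA17P, on the opposite strand, and AC106820.1, on the same strand, overlap ABCA3 and were not analysed here.

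Library totals ranged from 59430095 to 96811421 counts. Levels are CPM, counts relative to a library size adjusted with TMM factors, and levels between genes are compared only as RPKM, that is CPM per kilobase of merged exons. Intervals of single-library values cover counting error only. In the labels the cells are alveolar basal epithelial cells: 8 of 8 epithelial markers were at 1 CPM or more in every library, while 8 of 10 alveolar type 2 markers were below 1 CPM in every library, among them NKX2-1, LAMP3 and the surfactant protein genes. The remaining type 2 markers were ABCA3 itself and NAPSA, and NAPSA was low too, with a median of 0.627 CPM and a maximum of 1.147 CPM. Of the markers of other cell types, 4 of 4 endothelial, 4 of 6 macrophage, 3 of 5 fibroblast and 3 of 5 alveolar type 1 genes stayed below 1 CPM in every library. The summed fibroblast markers ranged from 16.5 to 119.1 CPM and the macrophage markers from 20.5 to 45.2 CPM. The summed alveolar type 1 markers ranged from 289.6 to 637.9 CPM, nearly all of it CAV1 at 287.3 to 635.6 CPM, with AGER at 1.59 to 2.92 CPM. The part of these markers in the results below was not tested.

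Of the 10 members, 6 reached a mean of at least 1 CPM: ABCA3, ABCA2, ABCA7, ABCA5, ABCA1 and ABCA12. Per length, ABCA3 stood first, with a median of 116.8 RPKM over the 10 libraries, the 98.6th percentile of 17739 tested genes with a length. ABCA2, an endolysosomal transporter abundant in myelinating cells, followed at a median of 6.37 RPKM (5.54 to 7.05, the 66.9th percentile). ABCA7, a phospholipid transporter close in sequence to ABCA1, stood at 3.25 RPKM (2.56 to 3.78, the 54.1th percentile).

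Below these came ABCA5, a lysosomal member, at a median of 0.492 RPKM (0.313 to 0.553), ABCA1 at 0.459 RPKM (0.328 to 1.77) and ABCA12 at 0.308 RPKM (0.115 to 0.412). The ranges of ABCA5, ABCA1 and ABCA12 overlapped, so the order among these 3 is not separated by the spread over libraries. The ranges of ABCA2 and ABCA7 overlapped neither each other nor those 3. ABCA3 ranged from 3.33 to 147.5 RPKM and came down to the range of ABCA7 in 1 library, the library labelled KO transduced. The order of the medians was the same with the length of the longest coding transcript in place of merged exons.

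**Figure D1:**
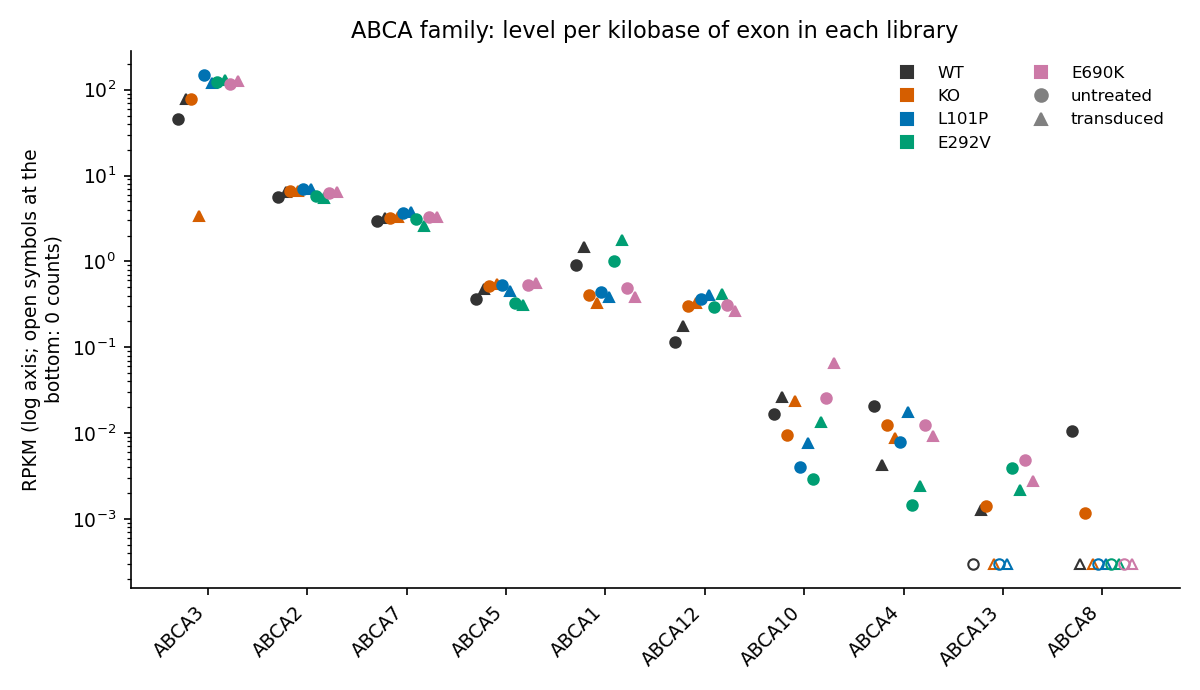
Level of each ABCA member in each of the 10 libraries, in RPKM on a log axis, with colour for the line and shape for the vector; open symbols at the bottom are libraries with 0 counts. ABCA3 sits between 45.6 and 147.5 RPKM in 9 libraries and at 3.33 RPKM in the library labelled KO transduced, while ABCA2 and ABCA7 form narrow bands.

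The other 4 members were near the limit of detection. ABCA4, the retinal transporter of retinoid-lipid adducts mutated in Stargardt disease, had 67 counts in all and 1 to 15 in a library. ABCA10, a member of the ABCA6-like cluster on chromosome 17, had 131 counts in all, from 2 to 42 in a library, with the 42 in the transduced E690K library. ABCA10 overlaps the far more counted ABCA5 on the same strand at chr17:69147214-69244846 against chr17:69244311-69327244, so reads of the shared stretch are uncertain. ABCA13, annotated with 5058 codons, had 25 counts over 6 libraries, and ABCA8 had 11 counts, 10 of them in the untreated WT library and 1 in the library labelled KO untreated. The subfamily genes outside the 10, ABCA6 and ABCA9, had 2 and 12 counts in all. ABCA4 and ABCA10 passed the filter and were called in none of the comparisons below.

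ABCA3 had the widest range of the 6 expressed members, 44.3-fold between its lowest and highest library, against 5.37-fold for ABCA1 and 1.27-fold for ABCA2. It stood at 356 CPM in untreated and 602 CPM in transduced WT cells, at 1151 and 922 CPM in L101P, at 965 and 1022 CPM in E292V, and at 900.3 and 994 CPM in E690K. In the libraries labelled KO untreated and KO transduced it stood at 600.3 and 26.0 CPM. The 6 libraries of the missense lines were thus above both WT libraries, and the library labelled KO transduced was the lowest of the 10. A row named EGFP moved the same way as ABCA3 in the KO pair, with 2842 counts in the library labelled untreated and 4 in the one labelled transduced. The tdTomato row held 0 counts in both KO-labelled libraries, which allows up to 3 counts in each, and 236 to 756 counts in the other 8. In the WT line EGFP was at 69.7 and 151 CPM, in L101P at 1.01 and 36.9 CPM, in E292V at 20.2 and 66.0 CPM, and in E690K at 16.5 and 18.5 CPM, so untreated libraries were not free of it, and untreated WT was above the transduced libraries of L101P, E292V and E690K. That the row reports the GFP of the vector was not tested.

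In the additive fit of line and vector (edgeR quasi-likelihood test, Benjamini-Hochberg adjustment over 17978 genes), ABCA3 passed in no comparison. Without the filter on low counts it passed the F test among lines (adjusted p = 3.25e-06) and the L101P contrast (log2 1.03, adjusted p = 0.0369) in edgeR. With the filter, its log2 fold change against WT was 1.03 (SE 0.79, adjusted p = 0.543) in L101P, 1.00 (SE 0.78, adjusted p = 0.759) in E292V and 0.93 (SE 0.78, adjusted p = 0.586) in E690K. For the KO line it was -0.91 (SE 0.85, 95% interval -2.77 to 0.94, adjusted p = 0.707). These values also moved with each WT library. Without the untreated one they were 0.37, 0.36, 0.30 and -1.76 (L101P, E292V, E690K and KO), without the transduced one 2.00, 2.00, 1.94 and -0.12, and none was called (lowest edgeR adjusted p = 0.364). Without the transduced library of the line itself, E292V was at 0.55 and E690K at 0.44. The wide errors rest on the KO pair: without that pair the same fit, at adjusted p = 0.0108, 0.0348 and 0.0123, gave 1.15 for L101P, 1.08 for E292V and 1.01 for E690K. Without the library labelled KO untreated the KO contrast was -4.26 (edgeR adjusted p = 7.14e-06), and without the library labelled KO transduced it was 0.43 (edgeR adjusted p = 0.82).

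The large difference of ABCA3 within the KO pair was set beside its paralogs, to see whether they differed along with it. Both libraries carry the label of the same line, so a paralog change shared by both cannot show within this pair. Whether the difference is a loss of the cells' own ABCA3 message or added vector transcripts was not tested. Per length, ABCA3 made up 82.1% of the summed family level in untreated WT cells, 86.8% in transduced WT cells and 87.5% in the library labelled KO untreated. In the 6 missense libraries this share was 90.7% to 92.5%, and in the library labelled KO transduced it was 23.1%. The other 9 members together summed to 11.03 RPKM in the library labelled KO untreated and 11.09 RPKM in the one labelled KO transduced, inside their range of 9.92 to 12.1 RPKM over the 10 libraries. ABCA3 stood 8.21 to 23.6 times above ABCA2 in 9 libraries and at 0.506 times ABCA2 in the library labelled KO transduced.

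Gene by gene, the 5 paralogs at a mean of at least 1 CPM differed little within the KO pair. ABCA3 was 23.1-fold lower in the library labelled transduced. The ratio of the transduced to the untreated label was 0.996 for ABCA2 (95% counting interval 0.946 to 1.05), 1.03 for ABCA7 (0.947 to 1.13) and 1.06 for ABCA5 (0.890 to 1.26). It was 1.06 for ABCA12 (0.813 to 1.39) and 0.813 for ABCA1 (0.649 to 1.02). The interval of each of these 5 ratios held 1. With 1 library against 1 there is no replicate error here and no test. The upper bounds of these 5 leave room for a rise of at most 1.39-fold by counting error, the widest being that of ABCA12. ABCA10, at 6 and 16 counts, had a ratio of 2.49 (0.596 to 14.5). ABCA4, at 8 and 6 counts, had a ratio of 0.699 (0.102 to 4.13). Counts this low do not bound a rise closely.

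Over the 5 lines, 5 of 30 within-pair changes of the 6 expressed members passed 1.5-fold: ABCA1, ABCA3 and ABCA12 in WT, ABCA1 in E292V, and ABCA3 in the KO pair. Among all genes at a mean of at least 1 CPM the share past 1.5-fold was 3.86% (WT), 3.59% (KO), 8.32% (L101P), 5.45% (E292V) and 2.89% (E690K). None of the 6 passed that limit in L101P or E690K. Past 2-fold there was 1 change among the 30, that of ABCA3 in the KO pair, where 0.779% of genes passed that limit. In the other pairs 0.663% (WT), 2.51% (L101P), 1.27% (E292V) and 0.64% (E690K) of genes did.

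**Figure D2:**
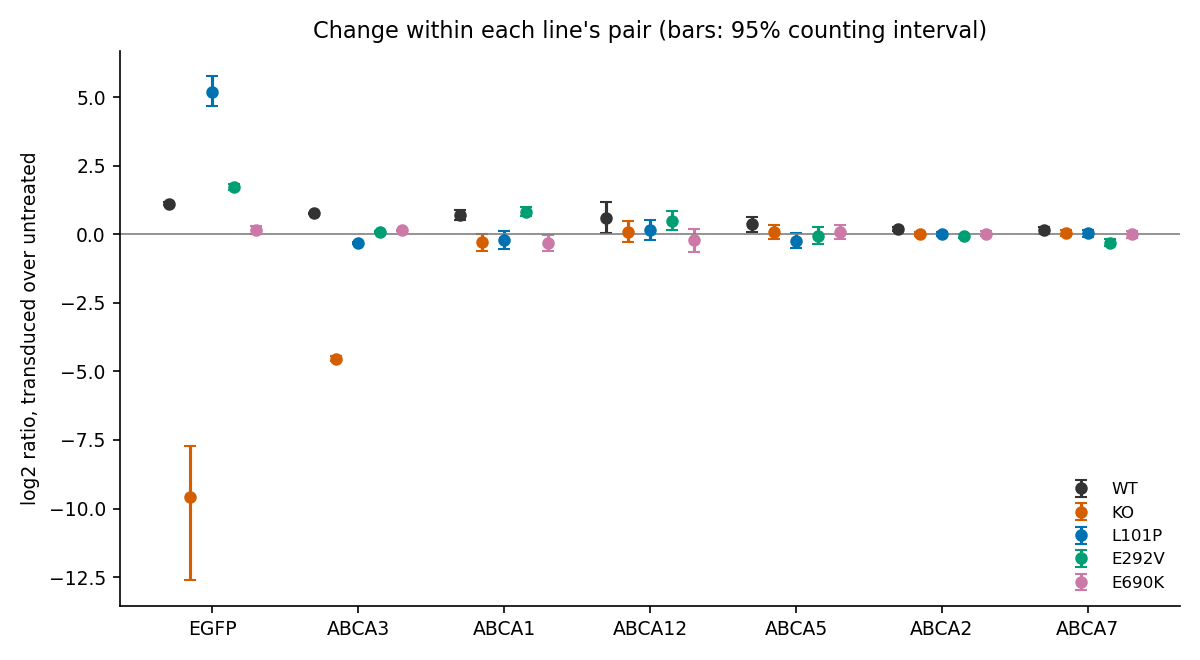
Log2 ratio of the transduced to the untreated library of each line, for the EGFP row and the 6 expressed ABCA members, with 95% counting intervals as bars and colour for the line. EGFP and ABCA3 of the KO pair lie far below 0, while the paralogs shown for that pair lie close to 0.

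Lines differed in 3 of the 8 tested members by an F test over the 5 lines: ABCA1 (adjusted p = 0.000603), ABCA12 (adjusted p = 0.0155) and ABCA5 (adjusted p = 0.0406), in edgeR. Of all 17978 genes 13% passed that test. In the contrasts with WT, 2 members were called in KO, where 1.8% of genes were called, 2 in L101P (3.94% of genes), 1 in E292V (1.05%) and 2 in E690K (5.38%). For the mean of the 4 mutant lines against WT it was 2 members, against 1.37% of genes. The called members were ABCA1, lower, and ABCA12, higher, and in E292V ABCA12. These contrasts share the 2 WT libraries, so they are not independent of one another. The median log2 difference of the 8 members against WT was -0.05, 0.24, -0.09 and 0.23 (KO, L101P, E292V and E690K), and that of all genes was between -0.02 and 0.00 in each.

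**Figure D3:**
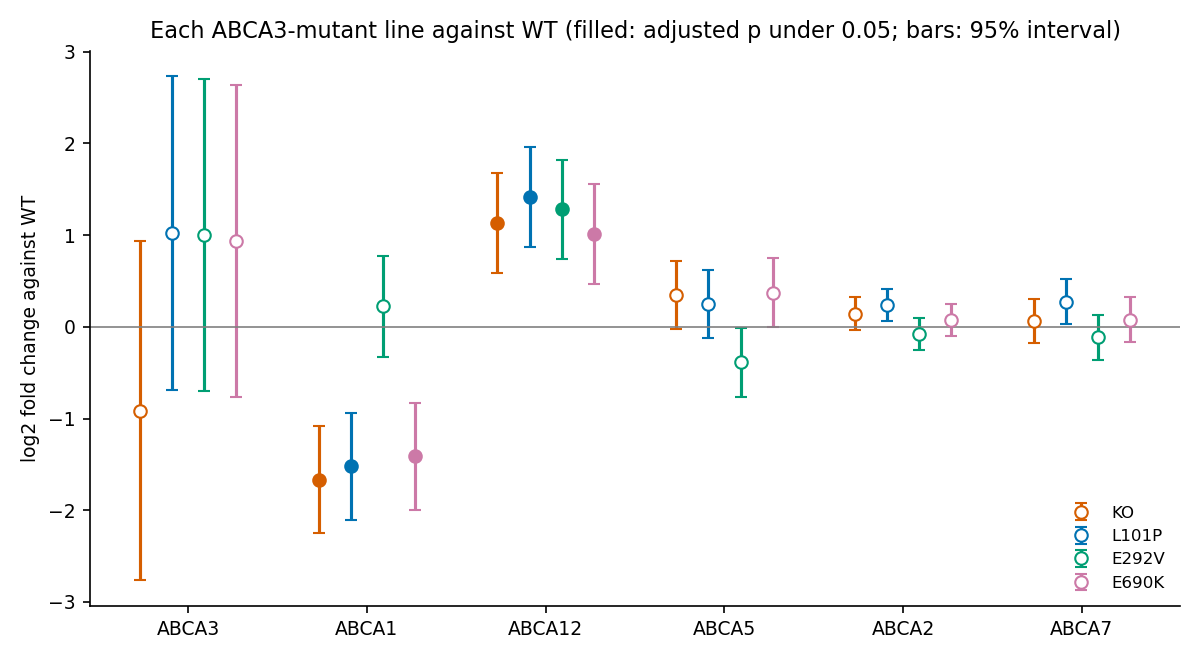
Fitted log2 fold change of each of the 4 ABCA3-mutant lines against WT for the 6 expressed ABCA members, with 95% intervals as bars; filled points have an adjusted p under 0.05. ABCA1 lies at -1.67, -1.52 and -1.41 in KO, L101P and E690K and at 0.22 in E292V, ABCA12 lies between 1.01 and 1.42 in the 4 lines, and the intervals of ABCA3 are the widest.

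ABCA1 (ENSG00000165029.15, minus strand, chr9:104781002-104928237), the cholesterol exporter, was lower in 3 of the 4 mutant lines. It stood at 10.3 and 16.6 CPM in untreated and transduced WT cells and at 11.4 and 20.0 CPM in E292V. In the libraries labelled KO untreated and KO transduced it stood at 4.59 and 3.73 CPM, in L101P at 4.94 and 4.31 CPM, and in E690K at 5.48 and 4.42 CPM. The 6 libraries of KO, L101P and E690K lay between 3.73 and 5.48 CPM and did not overlap the 4 libraries of WT and E292V, which began at 10.3 CPM. The antisense gene AL359182.1 overlaps ABCA1 and has a row of its own, at a mean of 0.043 CPM. Its reads in the overlap cannot be told from those of ABCA1 without a stated strand setting.

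Against WT, ABCA1 fell by 1.67 on the log2 scale in KO (SE 0.27, edgeR adjusted p = 0.00901), a 3.17-fold lower level. It fell by 1.52 in L101P (SE 0.27, edgeR adjusted p = 0.00958), 2.87-fold lower, and by 1.41 in E690K (SE 0.27, edgeR adjusted p = 0.00892), 2.66-fold lower. In E292V the log2 difference was 0.22 (95% interval -0.33 to 0.78, edgeR adjusted p = 0.858). Among the 4 mutant lines alone, fitted without WT, ABCA1 still differed (edgeR F test, adjusted p = 0.000842). The WT transduced library, the higher of the WT pair, carried part of each contrast: without it the differences were -1.30 in KO (adjusted p = 0.0786), -1.15 in L101P (adjusted p = 0.0879) and -1.05 in E690K (adjusted p = 0.0697) in edgeR. Leaving out a line's own transduced library also ended the call in KO (-1.39, edgeR adjusted p = 0.196) and in E690K (-1.12, edgeR adjusted p = 0.165).

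Among the 5 paralogs at a mean of at least 1 CPM, ABCA1 had the largest shifts within pairs. The transduced library was 1.62-fold the untreated one in WT (95% counting interval 1.43 to 1.83) and 1.76-fold in E292V (1.58 to 1.98), the 2 lines where its level was high. In KO, L101P and E690K the same ratio was 0.813, 0.871 and 0.805. Whether the shift differs between lines was not tested, since each line has 1 library a treatment.

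The promoter of ABCA1 is shown because its LXR element is the textbook link between cell sterol and this gene. LXR binds, with the retinoid X receptor, a direct repeat with a spacing of 4, named DR4. The motif searched had the elements GGTNA and GGTCA with 5 bases of any kind between, on both strands, in the 120 bases before each RefSeq gene start (GRCh38.p14). It occurred in 36 of 35116 such windows (0.103%), and of the members in the table it was found in ABCA1 alone. The ABCA1 site reads GGTTA in its first element and matches only through the open letter N. With GGTCA in both elements it would not have matched. The letters thus admit this known site, and its match is not an independent finding. ABCA4 and ABCA8 were not in that table. The match, in capitals, begins 69 bases before the start, and it is a match of letters that says nothing of binding in these cells.
ABCA1 promoter, chr9:104928156-104928275, minus strand: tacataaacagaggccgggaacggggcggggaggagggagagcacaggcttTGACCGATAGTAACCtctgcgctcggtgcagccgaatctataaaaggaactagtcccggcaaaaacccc

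Other genes of sterol efflux and LXR control were followed as a list of 20, of which 19 were tested. In KO 2 were lower and none higher (1.8% of all genes called), in L101P 4 were lower (3.94%), in E690K 3 were lower (5.38%), and in E292V 2 were higher and none lower (1.05%). The list's median log2 difference was -0.18 (KO), -0.02 (L101P), 0.03 (E292V) and -0.13 (E690K). APOE and APOC1, the linked apolipoprotein genes, fell in L101P by 1.501 (SE 0.23, edgeR adjusted p = 0.00486) and by 1.09 (SE 0.19, edgeR adjusted p = 0.00865) on the log2 scale. In E292V, APOE rose by 1.17 (SE 0.22, edgeR adjusted p = 0.0227) and APOC1 rose by 0.86 (SE 0.18, edgeR adjusted p = 0.0435), and in E690K APOC1 fell by 1.45 (SE 0.19, edgeR adjusted p = 0.000912). SCD, the desaturase that makes monounsaturated fatty acids, fell in KO, L101P and E690K by 0.77, 0.69 and 0.85, and the pseudokinase gene TRIB3 fell by 0.58, 0.76 and 0.44 in the same lines.

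Other LXR targets and the receptors themselves are given by their values. ABCG1, its partner in sterol export, differed among lines (edgeR F test, adjusted p = 0.021) and passed in no contrast with WT. It was at 3.82 and 7.02 CPM in untreated and transduced L101P, the line pair with its highest library, and its log2 difference there was 0.94 (SE 0.30, edgeR adjusted p = 0.109). MYLIP, the LXR-induced ubiquitin ligase of the LDL receptor, had an adjusted p of 0.357 in the F test of edgeR. The receptor genes NR1H2 and NR1H3 were not called either (edgeR F test, adjusted p = 0.716 and 0.348), at medians of 131.6 and 7.89 CPM.

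**Figure D4:**
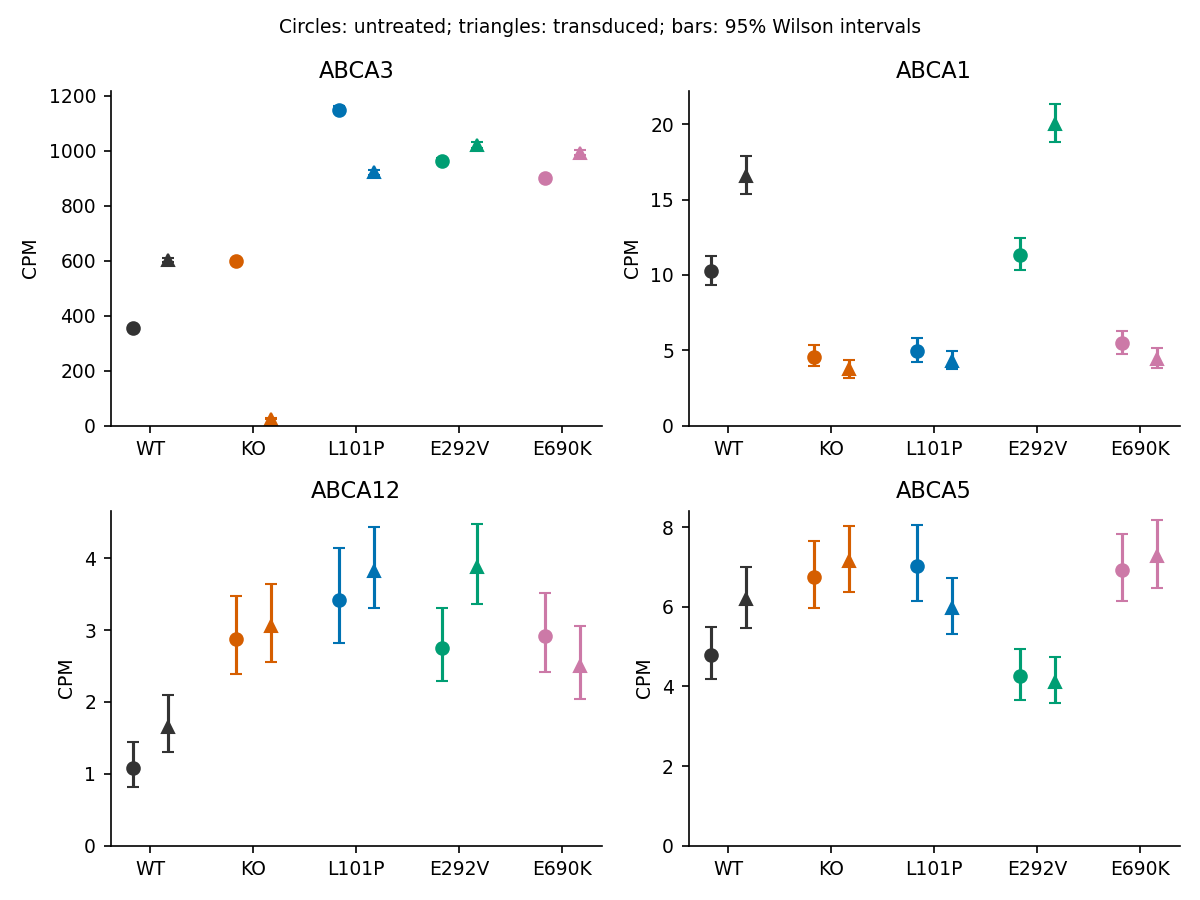
Level in CPM of ABCA3, ABCA1, ABCA12 and ABCA5 in each line, untreated as circles and transduced as triangles, with 95% Wilson intervals on read pairs as bars and an axis from 0. ABCA1 separates WT and E292V from the other 3 lines, ABCA12 is lowest in the 2 WT libraries, and ABCA5 is lowest in E292V.

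ABCA7, the other member of this branch, was called in no contrast. It ranged from 21.4 CPM in transduced E292V to 31.6 CPM in transduced L101P, and the WT libraries, at 24.5 and 27.1 CPM, lay inside that range. For the mean of the mutant lines against WT the log2 difference was 0.08 (95% interval -0.12 to 0.27, edgeR adjusted p = 0.771). In L101P it was 0.28 (95% interval 0.03 to 0.52, edgeR adjusted p = 0.204).

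ABCA12 (ENSG00000144452.14, minus strand, chr2:214931542-215138428), the ceramide transporter of the skin barrier, was the member higher in all 4 mutant lines. It stood at 1.08 and 1.65 CPM in untreated and transduced WT cells, on 92 and 136 counts. In the libraries labelled KO untreated and KO transduced it stood at 2.88 and 3.06 CPM, in L101P at 3.42 and 3.83 CPM, in E292V at 2.75 and 3.88 CPM, and in E690K at 2.92 and 2.50 CPM. The 8 mutant libraries began at 2.50 CPM and did not overlap the WT pair. These are low levels, at the 25.5th percentile of the genes tested.

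The fold over WT was 2.20 in KO (edgeR adjusted p = 0.0423), 2.67 in L101P (edgeR adjusted p = 0.00958), 2.43 in E292V (edgeR adjusted p = 0.031) and 2.02 in E690K (edgeR adjusted p = 0.0361). For the mean of the mutant lines it was 2.32 (log2 1.21, SE 0.21, 95% interval 0.75 to 1.67, edgeR adjusted p = 0.0166). Among the mutant lines alone ABCA12 was not called (edgeR F test without WT, adjusted p = 0.609). Since WT is 1 line with 2 libraries, the difference cannot be told apart from one particular to that WT culture. Without the untreated WT library the log2 differences were 0.91, 1.20, 1.07 and 0.79 (KO, L101P, E292V and E690K), and none was called (edgeR adjusted p = 0.287, 0.0917, 0.383 and 0.328). Leaving out the transduced WT library instead ended the calls in KO (1.40), E292V (1.55) and E690K (1.27) but not in L101P. The call in KO also ended without its own untreated (1.06) or transduced (1.22) library, and that in E292V without its transduced one (1.09). With the labels of the KO pair exchanged, the calls in KO (adjusted p = 0.0741), E292V (0.0583) and E690K (0.0602) were also lost in edgeR, at differences of 1.14, 1.28 and 1.01, while L101P kept its call. The annotated antisense genes of ABCA12, AC016708.1 and AC072062.1, have rows of their own, and without a stated strand setting their reads cannot be told from those of ABCA12.

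Genes of the epidermal lamellar granule, in which ABCA12 works in skin, were followed as a list of 14, of which 11 were tested. In KO 1 was higher and 1 lower (1.8% of all genes called), in L101P 1 was higher (3.94%), in E292V 1 was lower (1.05%), and in E690K 2 were higher (5.38%). The median log2 difference of the list was 0.13, -0.04, -0.09 and 0.20 in the same order. SMPD1, the acid sphingomyelinase, rose by 0.48 (SE 0.11, edgeR adjusted p = 0.0457) in KO and by 0.45 (SE 0.11, edgeR adjusted p = 0.0395) in L101P. SULT2B1, the cholesterol sulfotransferase, fell by 0.44 in KO (edgeR adjusted p = 0.023). The very-long-chain elongase ELOVL4 fell by 1.61 in E292V (edgeR adjusted p = 0.0212), from a level that did not exceed 2.38 CPM in any library. In E690K the lipoxygenase gene ALOXE3 rose by 1.64 (edgeR adjusted p = 0.00503) and ELOVL1 rose by 0.40 (edgeR adjusted p = 0.0136). No gene of this list was called in all 4 contrasts, as ABCA12 was.

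ABCA5, a lysosomal member, varied among lines within a narrow span. It stood at 4.26 and 4.12 CPM in untreated and transduced E292V, the 2 lowest libraries, and at 4.79 and 6.19 CPM in WT. In the libraries labelled KO untreated and KO transduced it stood at 6.76 and 7.16 CPM, in L101P at 7.04 and 5.98 CPM, and in E690K at 6.93 and 7.28 CPM. Against WT the log2 differences were 0.34 (KO), 0.25 (L101P), -0.39 (E292V) and 0.37 (E690K), and none was called (edgeR adjusted p = 0.4, 0.494, 0.461 and 0.255). Without the untreated WT library they were 0.15, 0.05, -0.58 and 0.18, without the transduced one 0.57, 0.46, -0.17 and 0.60, and L101P was at 0.07 without its own untreated library and at 0.42 without its transduced one. None of these was called. The F test among lines, at an adjusted p of 0.0406 in edgeR, was not passed without the E292V pair (adjusted p = 0.495), the E690K pair (0.1), the KO pair (0.0748), or with the labels of the KO pair exchanged (0.0627). It was not passed either without any 1 of the 6 single libraries of those lines, at adjusted p from 0.083 to 0.229 in edgeR.

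ABCA2, the other endolysosomal member, had the narrowest range of the 6, with 63.8 to 81.1 CPM over the 10 libraries. It did not pass the F test among lines in edgeR (adjusted p = 0.103), and it passed in DESeq2 (adjusted p = 0.0335) and without the transduced WT library (edgeR adjusted p = 0.0419). It stood at 63.9 and 73.7 CPM in WT, at 76.1 and 75.8 CPM in the libraries labelled KO untreated and KO transduced, and at 80.9 and 81.1 CPM in L101P. E292V was at 66.7 and 63.8 CPM and E690K at 71.7 and 73.1 CPM. For the mean of the mutant lines the log2 difference from WT was 0.09 (95% interval -0.05 to 0.24, edgeR adjusted p = 0.564), and the largest single contrast was 0.24 in L101P (95% interval 0.06 to 0.41, edgeR adjusted p = 0.139). At the upper bounds these intervals allow for ABCA2 a rise of 0.24 in the mean of the mutant lines and of 0.41 in L101P on the log2 scale. The gene C9orf139, on the opposite strand, overlaps ABCA2 and has a row of its own. Reads of that overlap cannot be assigned without a stated strand setting.

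No member was called for the vector effect over the 5 lines, in which 0% of the 17978 genes were called by edgeR, 1236 genes had an unadjusted p under 0.05, and DESeq2 called 118. Of the members none had an unadjusted p under 0.05 (lowest 0.0761, ABCA10), and DESeq2 called 0. The fitted log2 effects were 0.17 for ABCA1 (95% interval -0.20 to 0.53), 0.22 for ABCA12 (-0.12 to 0.56) and 0.03 for ABCA2 (-0.08 to 0.15). For ABCA5 the effect was 0.05 (-0.19 to 0.28) and for ABCA7 -0.02 (-0.17 to 0.14). For ABCA3, the vector's own cargo, it was -0.49 (SE 0.55, 95% interval -1.67 to 0.69, edgeR adjusted p = 0.935), and it was 0.17 without the KO pair (edgeR adjusted p = 0.999). The largest fitted effect was that of ABCA10, 1.24 (-0.15 to 2.62), on 2 to 42 counts in a library. Its ratio of transduced to untreated lay between 1.55 and 4.64 in the pairs, with a counting interval that held 1 in all but E690K. For ABCA4, on 1 to 15 counts in a library, the effect was -0.34 (-2.24 to 1.56).

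A list of 20 genes of the lamellar body and surfactant lipid, where ABCA3 works in the lung, had 18 tested. By edgeR 1 was lower in KO (1.8% of all genes called), 1 was lower in L101P (3.94%), and 1 was higher and 1 lower in E690K (5.38%). In E292V none was called (1.05% of all genes), and 3 had an unadjusted p under 0.05. Its median log2 difference lay between 0.05 and 0.11 in the 4 lines. The lower gene was SCD, which is also in the sterol list, and the higher gene in E690K was LPCAT1, the lysophosphatidylcholine acyltransferase of surfactant lipid, which rose by 0.36 (SE 0.07, edgeR adjusted p = 0.011). Of the 16 phospholipid flippases and scramblases, the other proteins that move lipids across a bilayer, all were tested. The flippase ATP8B2 fell in KO, L101P and E690K by 0.63, 0.61 and 0.59, and TMEM30A, the chaperone subunit of such flippases, fell by 0.33 in KO and by 0.34 in E690K. That is 2 of 16 in KO and 1 of 16 in L101P, where 1.8% and 3.94% of all genes were called, and with ANO6 3 of 16 in E690K, where 5.38% were. The scramblase gene ANO6 rose by 0.30 in E690K (edgeR adjusted p = 0.036), and in E292V none of the list was called by edgeR (5 had an unadjusted p under 0.05, and 1.05% of all genes were called).

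The genes whose log2 CPM most resembled each member over the 10 libraries were listed as a description, from 12961 genes at a mean of at least 1 CPM, with Pearson's r. The libraries share lines in pairs, so the points are not independent. For ABCA1 these were DPYSL3 (0.98), THY1 (0.97) and the flippase gene ATP8B2 (0.97). For ABCA12 they were HMMR (0.92), MORC3 (0.91) and TTC17 (0.91), and for ABCA5 SMC1A (0.98), SLC7A11 (0.97) and CDKL1 (0.97). LRP4 was among the top 3 for both ABCA2 (0.97) and ABCA7 (0.95), and ABCA2 and ABCA7 had an r of 0.88 with each other. For ABCA3 the closest was AL021453.1 (0.90), and its r with the other 5 expressed members lay between -0.24 and 0.29. ABCA1 ran opposite to ABCA5 (-0.78) and ABCA2 (-0.72).

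The tested genes next to the called members on the chromosome were examined to see whether a whole stretch moved with them, 5 on each side. Of the 10 neighbours of ABCA1 none was called among lines (edgeR F test, lowest adjusted p = 0.0819, at SLC44A1). Of the 10 neighbours of ABCA12, 1 was called among lines: CPS1, the mitochondrial carbamoyl phosphate synthetase gene at chr2:210477682-210679107, which was called in 4 contrasts, with log2 differences of 1.36 (KO), 0.94 (L101P), -1.80 (E292V) and -1.33 (E690K). ABCA12 was higher in all 4 lines, so CPS1 did not share its direction in E292V and E690K. The nearest tested genes on either side, BARD1 and ATIC, were not called (edgeR F test, adjusted p = 0.088 and 0.545). Both were above 0 in all 4 lines, BARD1 at 0.56, 0.46, 0.23 and 0.29 and ATIC between 0.0045 and 0.12. SPAG16, next beyond BARD1, was below 0 in all 4, between -0.11 and -0.03. Of the 10 neighbours of ABCA5, 2 were called, the potassium channel genes KCNJ16 and KCNJ2, both at a mean below 1 CPM.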

How the data were processed

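Per the labels' protocols, total-RNA libraries were made from lifted A549 cells, and the deposited table holds raw counts per gene that the authors made. The submitters' processing notes name featureCounts, Subread, edgeR, limma and GRCh38 without versions or roles, and annotation, strand use and mate counting are not given in the sources used here. Of the deposited counts from 1 to 10, 81.4% were even, against 51.5% of those above 1000, the form of a table that adds both mates of a pair. The 95% Wilson intervals, and the exact conditional binomial intervals of ratios, therefore use counts divided by 2. The fit used the counts as deposited, and with counts divided by 2 the filter kept 6 members in place of 8. Reads carry no molecular identifiers in the sources used here.

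Counts were fitted in edgeR 4.0.16 (R 4.3.3) with TMM factors (0.972 to 1.03), filterByExpr (17978 genes) and the quasi-likelihood test of line plus vector over 10 libraries, with 4 residual degrees of freedom and Benjamini-Hochberg adjustment at 0.05. Libraries pair by cell line, hence line as a block in the fit. Errors measure departure from additivity in single cultures, and p-values describe these libraries. Lengths come from GENCODE release 29, which 98.5% of row names matched once. DESeq2 1.42.0 was an alternative. On simulated data (KO contrast, 17978 genes) 95 of 100 genes changed 2-fold and 100 of 100 changed 4-fold were recovered, and 8 of 17778 unchanged genes were called. Each gene was drawn at the common dispersion of 0.0168, and the changed genes differed in KO alone. Recovery of members more variable than that, ABCA3 among them, was not tested. In L101P the log2 difference of ABCA3 from WT was 1.03 (SE 0.79) and was not called.

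The genes named are the 10 members, ABCA6 and ABCA9, the EGFP and tdTomato rows, called genes of 4 fixed lists (up to 6 for each list and comparison, by adjusted p), the 3 genes most like each member (among those averaging 1 CPM or more), and called neighbours. ABCG1, MYLIP, NR1H2 and NR1H3 were singled out after their values were seen, as were the uncalled neighbours SLC44A1, BARD1, ATIC and SPAG16. The members and lists were chosen with earlier results of these data known. The pseudogenes ABCA11P and ABCA17P were not analysed here.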

Additional observations from a re-analysis of the deposited data

Results flagged for a closer look

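In 18 sets of 5 libraries or 5 within-line changes, values were put on the log2 scale, and the ratios below hold on that scale. The gap of the highest or lowest value to its nearest neighbour was divided by the range of the set. This ratio was compared with a critical value of 0.71, which about 1 set in 20 passes by chance. The ABCA3 level in the transduced libraries gave 0.856, with the library labelled KO transduced apart from the others. The ABCA3 change within each line gave 0.796, with the KO pair apart. Both ABCA3 results share the library labelled KO transduced, so they are not independent of each other. The ABCA12 level in the untreated libraries gave 0.811, with WT apart at 1.08 CPM against 2.75 to 3.42 CPM in the 4 mutant lines. In the transduced libraries ABCA12 was not flagged, with WT at 1.65 CPM against 2.50 to 3.88 CPM in the 4 mutant lines.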

How the results depend on the processing

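Calls rest on 1 line a genotype and on single libraries, and the F test of ABCA1 among lines kept its call in 21 of 21 alternatives, against 19 of 21 for ABCA12 and 11 of 21 for ABCA5. The ABCA1 calls were kept in 17 of 19 alternatives in KO, 18 in L101P and 17 in E690K, and those of ABCA12 in 11, 18, 13 and 13 of 19 in KO, L101P, E292V and E690K. With the labels of the KO pair exchanged the vector effect on ABCA3 was 0.80, and 1 member was called in KO, 0 in E292V and 1 in E690K, where 0.79%, 0.584% and 3.33% of all genes were called. With a 2-fold limit within pairs 1 change of the expressed members passed, against 0.64% to 2.51% of all genes. Leaving out 1 library or pair in turn, the members called numbered 0 to 2 in KO, 1 to 3 in L101P, 0 to 2 in E292V, 0 to 3 in E690K, 0 to 3 for the mean of the mutant lines and 0 for the vector. The share of all genes called moved over the same fits, from 0.131% to 6.43% in KO, 0.944% to 10.3% in L101P, 0.0683% to 4.24% in E292V, 0.883% to 11.2% in E690K, 0.135% to 6.2% for that mean and 0% to 1.08% for the vector. Without the line as a replicate block, 0 members were called for the vector. The lone library of a line was assumed to vary like the others.

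Directions turned, in values not called in the fit of all libraries, for the vector effect on ABCA1 (-0.0178 to 0.29), ABCA2 (-0.0136 to 0.0577), ABCA3 (-0.88 to 0.17), ABCA5 (-0.0355 to 0.12) and ABCA7 (-0.0604 to 0.0554). They turned in KO for ABCA3 (-4.26 to 0.43) and ABCA7 (-0.0356 to 0.18), in E292V for ABCA1 (-0.25 to 0.61), ABCA2 (-0.18 to 0.0403) and ABCA7 (-0.29 to 0.0588), and in E690K for ABCA2 (-0.0299 to 0.19) and ABCA7 (-0.0177 to 0.19). For the mean of the mutant lines they turned for ABCA2 (-0.0095 to 0.21), ABCA3 (-0.26 to 1.46), ABCA5 (-0.0472 to 0.36) and ABCA7 (-0.022 to 0.19). For that mean the call of ABCA1 ended without the KO pair (-0.89, edgeR adjusted p = 0.0902), the E690K pair (-0.97, 0.159) or the transduced WT library (-0.72, 0.301). The call of ABCA12 for that mean ended without the E690K pair (1.29, edgeR adjusted p = 0.052) or either WT library (0.99 and 1.47, 0.283 and 0.077). The causes were not tested.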
